A study of Cercocebus atys with 16 samples.

Results

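Mitochondrial ribosomal proteins are encoded in the nucleus, made in the cytosol and imported into mitochondria, where they join mitochondrial rRNA to form the ribosome that translates the mitochondrial genome. The products of that ribosome are subunits of the respiratory chain and ATP synthase. MRPL symbols name proteins of the large subunit, which joins amino acids, and MRPS symbols name proteins of the small subunit, which reads the mRNA. Activated T cells are known to expand their mitochondrial mass and protein synthesis before they divide.

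The genes described here are those whose name on the array starts with MRPL or MRPS followed by a digit and that had a probe well above background in at least 2 animals. All 55 such genes among 34545 gene names on the array met the rule, 29 MRPL and 26 MRPS, with 75 of their 78 probes. The 3 probes that did not meet it belong to MRPL11, MRPL13 and MRPL51, which each have another probe that did. The rule uses names and signal above background, not the response. Of the 55 symbols, 52 are in RefSeq's gene table for Caty_1.0, the sooty mangabey assembly. The names do not follow function in every case: MRPS30 and MRPS18A lie in the large subunit, and MRPS36 is a component of the 2-oxoglutarate dehydrogenase complex and not of the ribosome.

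The cells were double-negative T cells (CD3+CD4-CD8-) from the blood of 4 sooty mangabeys (Cercocebus atys), all infected with SIV. FNV and FKN had a normal CD4 status and FBR and FTV a low one. Cells of above 98% purity were rested overnight, then left unstimulated or given anti-CD3 (3 mg/ml in the labels) and anti-CD28 (1 mg/ml) for 4 hours, which engages the T cell receptor and its costimulator. The labels used here give no age and no group of uninfected animals, so the infection is shared by every sample. Each animal had 4 arrays of 2 colours: stimulated against unstimulated RNA in both dye orientations, stimulated RNA against itself and unstimulated RNA against itself. The array's probes follow rhesus macaque sequence, so sequence differences between the species can weaken hybridisation.

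The response below is the log2 ratio of stimulated over unstimulated RNA, averaged over an animal's 2 ratio arrays, so each animal is 1 replicate (n = 4), and errors are SD between animals. Adjusted p-values are from limma with Benjamini-Hochberg adjustment over all 27493 probes tested, with a threshold of 0.05. A gene with several probes is described by its brightest. The stimulated self-self array of FNV was dim, with 33.3 to 37.6% of spots well above background in its channels against 52.0 to 65% on the other 15 arrays. It enters levels and self-self values and no response. Beside the T cell markers, genes of other blood cells were measured: 4 of 8 monocyte markers fell and 0 rose (median response -0.85), and 2 of 4 B cell markers fell while 1, FCER2, rose (median -0.63). The summed unstimulated signal of the monocyte markers ran from 4747 to 109485 between animals and their summed stimulated signal from 3686 to 37918. The T cell markers gave 3 that rose and 2 that fell of 6. CD4, which the selection was to remove, was well above background in all 16 unstimulated channels, and its response was 0.05 ± 0.04 (SD, n = 4; adjusted p = 0.42). No listed marker with a probe on the array was below background in every channel, but NCR1 was above it in only 2 unstimulated and 1 stimulated channels. Of the lists, 8 of 10 monocyte, 4 of 8 B cell and 4 of 5 NK cell markers were on the array. No probe was named CD8A or CD8B, so the removal of CD8 cells cannot be read from these arrays. In these bulk samples a change in the share of a cell type and a change in RNA per cell cannot be told apart, and the part of the other cells in the responses below was not tested.

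Probes of MRPL12, MRPL1 and MRPL10 that passed the test are shown, since the direction of these genes is described at length below. Each is 60 bases long, is printed 5′ to 3′ and is located on the macaque build rheMac2 by the array files. The first pair is from MRPL12, which rose, and overlaps by the 13 bases in capitals, so these probes are not independent readings of the gene. The other pair is the brightest probe of MRPL1, which rose, and a dimmer probe of MRPL10, which fell. All 4 have at least 1 reading frame with no stop codon, which alone does not show that they lie in coding sequence.
MRPL12 at chr16:77182518-77182665, plus strand: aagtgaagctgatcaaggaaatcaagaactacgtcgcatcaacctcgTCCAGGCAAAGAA
MRPL12 at chr16:77182569-77182712, plus strand: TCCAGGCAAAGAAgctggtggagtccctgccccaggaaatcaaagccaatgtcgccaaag
MRPL1 at chr5:51606097-51606156, minus strand: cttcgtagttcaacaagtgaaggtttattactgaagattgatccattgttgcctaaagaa
MRPL10 at chr16:32037730-32037789, minus strand: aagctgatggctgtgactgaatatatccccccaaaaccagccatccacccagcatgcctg
The MRPL12 probes span 148 and 144 bases of the genome, more than their own length.

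Most of the genes were higher after 4 hours of stimulation. Of the 55, 33 passed the test, where 40.3% of all tested probes did: 32 rose and 1 fell, while 19.9% of all tested probes rose and 20.4% fell. The other 22 did not pass. The median response of the 55 genes was 0.34, against -0.01 over all tested probes. The median was above 0 in each animal, at 0.20 in FNV, 0.38 in FKN, 0.29 in FBR and 0.46 in FTV. All 32 genes that rose had a ratio above 0 in all 4 animals, and 35 of the 55 did in all, where 28.2% of all tested probes did. In 3 of the 55 it was below 0 in all 4 animals, where 30.1% of all tested probes were. Only 3 of the genes that rose reached a 2-fold change. Without FKN the count was 21, and 2937 of all 27493 tested probes rose. Where the arrays were centred on the median with no loess it was 7, and 7.09% of all tested probes rose, while the median response of the 55 genes was 0.35.

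**Figure D1:**
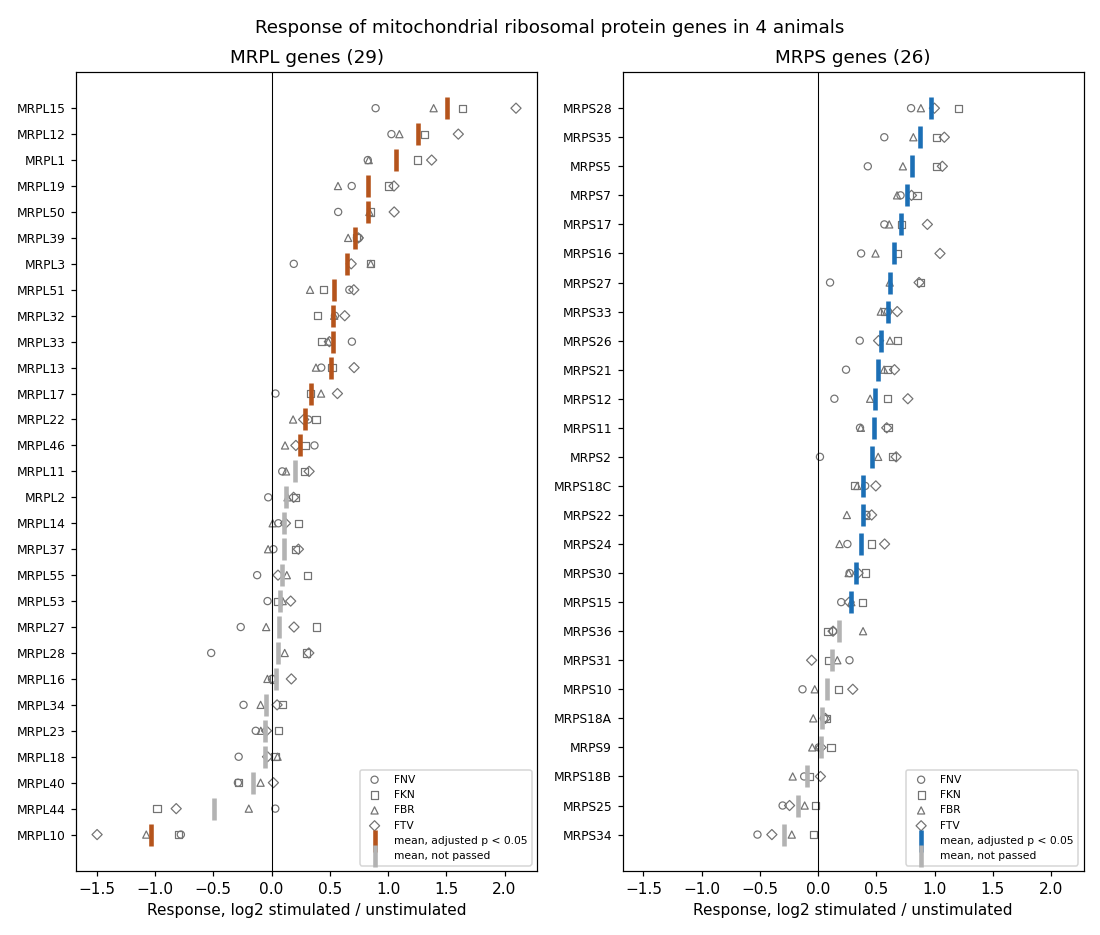
Response (log2 stimulated over unstimulated, horizontal axis) of the 29 MRPL and 26 MRPS genes, each by its brightest probe. Open symbols are the 4 animals and vertical bars their mean, coloured where the adjusted p was under 0.05 and grey where it was not; 32 coloured bars lie right of 0 and 1, MRPL10, lies left of it.

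Among large subunit proteins the largest rise was in MRPL15, a protein of the type also found in bacterial ribosomes. Its response was 0.89 in FNV, 1.64 in FKN, 1.39 in FBR and 2.10 in FTV. The mean of 1.51 ± 0.50 (SD, n = 4) passed the test (adjusted p = 0.0036), and FNV was the lowest animal. MRPL12, a stalk protein that also binds the mitochondrial RNA polymerase, had responses of 1.03, 1.31, 1.10 and 1.60 in FNV, FKN, FBR and FTV. Its mean was 1.26 ± 0.26 (SD, n = 4; adjusted p = 0.0012). Its other probes, the overlapping pair, rose too, by 1.17 ± 0.59 and 0.83 ± 0.37 (SD, n = 4), with FNV again lowest at 0.35 and 0.33. MRPL1, a protein of the other stalk of the large subunit, rose by 1.07 ± 0.28 (SD, n = 4; adjusted p = 0.0022), with 0.83 in FNV, 1.26 in FKN, 0.83 in FBR and 1.37 in FTV. Its other probe rose by 0.73 ± 0.34 (SD, n = 4; adjusted p = 0.012).

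Smaller rises in the large subunit covered proteins of bacterial type and proteins specific to mitochondria. MRPL19 rose by 0.83 ± 0.24 (SD, n = 4), and its second probe gave 0.84 ± 0.23. MRPL50, which has no bacterial counterpart, rose by 0.83 ± 0.20 (SD, n = 4), with 0.57 in FNV, 0.85 in FKN, 0.84 in FBR and 1.05 in FTV. MRPL39, also specific to mitochondria, varied least of these: its responses were 0.75 in FNV, 0.73 in FKN, 0.66 in FBR and 0.75 in FTV, with a mean of 0.72 ± 0.04 (SD, n = 4). MRPL33 rose by 0.53 ± 0.11 and, at its second probe, by 0.60 ± 0.06 (SD, n = 4).

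MRPL10 was the gene that fell. The MRPL10 protein anchors MRPL12 at the base of the stalk, so these partners in the ribosome had responses of opposite sign. At the brightest MRPL10 probe the responses were -0.78 in FNV, -0.80 in FKN, -1.08 in FBR and -1.5 in FTV, with a mean of -1.04 ± 0.34 (SD, n = 4; adjusted p = 0.0037). Every animal was below 0 at this probe and every animal was above 0 at all 3 MRPL12 probes. The other MRPL10 probes on chromosome 16 fell by 0.61 ± 0.29 and by 0.32 ± 0.20 (SD, n = 4; adjusted p = 0.014 and 0.039). The latter was dim, with unstimulated log2 levels of 6.36 to 6.96 between animals. A further probe that carries the name MRPL10 is placed on chromosome 6 and gave -0.16 ± 0.19 (adjusted p = 0.19).

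The MRPL44 probes did not give a single answer. MRPL44 encodes a large subunit protein in which inherited variants cause heart muscle disease. Its brightest probe gave 0.03 in FNV, -0.98 in FKN, -0.20 in FBR and -0.82 in FTV, a mean of -0.49 ± 0.49 that did not pass (SD, n = 4; adjusted p = 0.092). Another probe rose by 0.20 ± 0.07 (adjusted p = 0.041) and the last gave -0.09 ± 0.14 (adjusted p = 0.37). All 3 lie on chromosome 12, the brightest at chr12:87847574-87847633 and the probe that rose at chr12:87847730-87847789. No direction is therefore given for this gene.

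**Figure D2:**
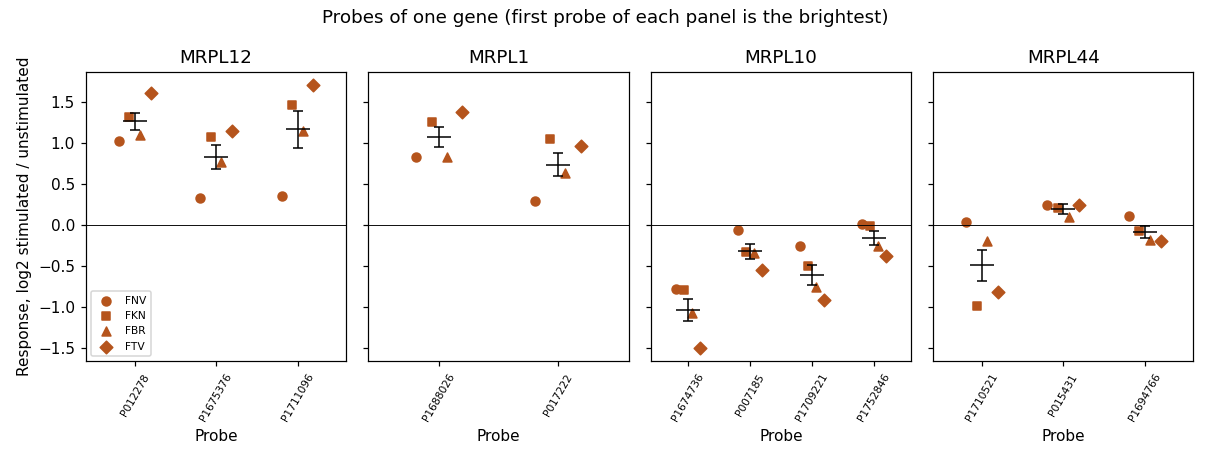
Response (log2 stimulated over unstimulated) at each tested probe of MRPL12, MRPL1, MRPL10 and MRPL44, with the brightest probe first in each panel. Symbols are the 4 animals and the black bars the mean with the standard error from limma; MRPL12 and MRPL1 lie above 0 at every probe, MRPL10 has 3 probes that fell, and MRPL44 lies on both sides of 0.

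Over all genes with several probes, agreement was common. There were 16 such genes and 20 pairs of a brightest probe with another. The pair had the same sign in 17, and both probes passed in the same direction in 9. Among the 9 was the MRPS17 pair, whose probe sequences are much alike. In 3 pairs 1 probe passed and the other did not, in 8 neither passed, and in 0 did they pass in opposite directions. The median absolute difference within a pair was 0.12.

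Small subunit genes rose over a narrower range. MRPS28, of bacterial type, had responses of 0.80 in FNV, 1.2 in FKN, 0.88 in FBR and 1.0 in FTV, a mean of 0.97 ± 0.18 (SD, n = 4; adjusted p = 0.0011). MRPS35, a protein specific to mitochondria, rose by 0.87 ± 0.23 and MRPS5, of bacterial type, by 0.81 ± 0.30 (SD, n = 4). MRPS7, a bacterial-type protein that binds the small rRNA, was close between animals, at 0.71, 0.85, 0.68 and 0.80 in FNV, FKN, FBR and FTV, and rose by 0.76 ± 0.08 (SD, n = 4). No animal overlapped 0 for any of these 4 genes. MRPS12, which lies at the decoding centre, rose by 0.49 ± 0.27 (adjusted p = 0.022), with FNV lowest at 0.14. MRPS16 and MRPS22, in both of which inherited variants cause mitochondrial disease, rose by 0.65 ± 0.30 and 0.38 ± 0.09 (SD, n = 4).

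MRPS17 and MRPS26 each rose at both of their probes. MRPS17 gave 0.71 ± 0.17 at its probe on chromosome 3. A probe placed on chromosome 1 gave 0.59 ± 0.25 and shares a run of 22 bases with the first. Beyond that run the aligned sequences also match at most bases, so these probes may not be independent readings of the gene. MRPS26 gave 0.54 ± 0.14 and 0.62 ± 0.21 (SD, n = 4).

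The MRPS18 family holds 3 related proteins that occupy different places in the ribosome. MRPS18C, the form that sits in the small subunit at the position of the bacterial protein, rose by 0.39 ± 0.08 (SD, n = 4; adjusted p = 0.0056). MRPS18B gave -0.10 ± 0.10 (adjusted p = 0.25), and its other probe 0.02 ± 0.20. MRPS18A, in the large subunit, gave 0.03 ± 0.05 at the brightest probe (adjusted p = 0.62) and rose by 0.21 ± 0.01 at the other (adjusted p = 0.023). The difference between the paralogs was not tested.

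Genes at the low end did not pass the test apart from MRPL10. MRPS34 had -0.52 in FNV, -0.04 in FKN, -0.23 in FBR and -0.40 in FTV, a mean of -0.30 ± 0.21 (SD, n = 4; adjusted p = 0.054), so every animal was below 0. Its second probe gave -0.33 ± 0.31. MRPS25 gave -0.17 ± 0.13 and MRPL40 -0.16 ± 0.15 (SD, n = 4). MRPL18, MRPL23, MRPL34 and MRPS9 had means between -0.06 and 0.02. MRPL28 varied widely, from -0.52 in FNV to 0.32 in FTV, with a mean of 0.05 ± 0.39 (SD, n = 4), and MRPL37 gave 0.10 ± 0.13. MRPS36, the dehydrogenase component, had 0.18 ± 0.14 (adjusted p = 0.096). The genes next to the threshold were MRPL17, which rose by 0.34 (adjusted p = 0.042), and MRPS34. The MRPL17 probe was dim, with unstimulated log2 levels of 6.20 to 6.67 between animals, and its size depended on the processing. With the scanner software's ratio it rose by 0.89.

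A larger share of the small subunit genes rose than of the large, where 19.9% of all tested probes rose and 20.4% fell. Of 26 MRPS genes 18 rose, 0 fell and 8 did not pass, with a median response of 0.42. Of 29 MRPL genes 14 rose, 1 fell and 14 did not pass, with a median of 0.20. The MRPS median lay above the MRPL median in all 4 animals: in FNV they were 0.26 and 0.06, in FKN they were 0.52 and 0.31, in FBR 0.38 and 0.13, and in FTV 0.54 and 0.28. With MRPS30 and MRPS18A moved to the large subunit and MRPS36 left out, 17 of 23 small and 15 of 31 large subunit genes rose, with medians of 0.48 and 0.20. The genes are not replicates of a condition, and the difference between subunits was not tested.

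**Figure D3:**
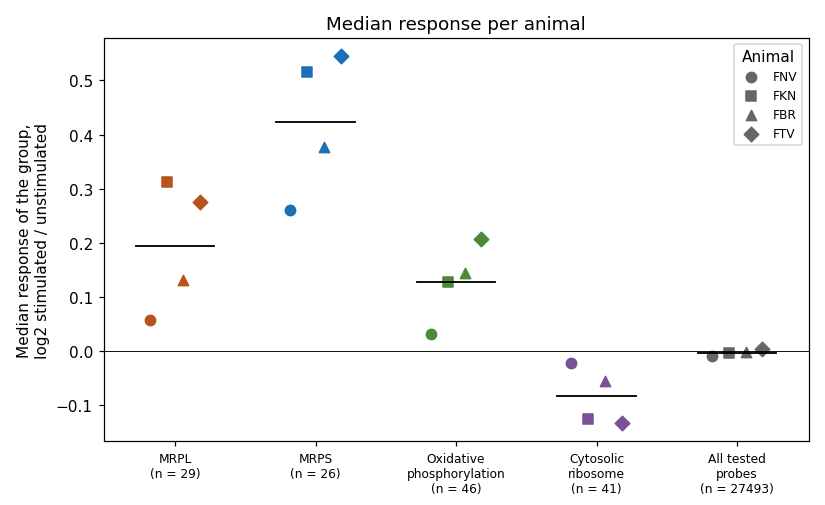
Median response (log2 stimulated over unstimulated) in each of the 4 animals for MRPL and MRPS genes, nuclear subunits of oxidative phosphorylation, cytosolic ribosomal proteins and all tested probes. Symbols are animals and lines the mean of the 4; the MRPS symbols lie above the MRPL symbol of the same animal in all 4.

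By evolutionary type, 22 of 35 bacterial-type genes rose and 1 fell, with a median of 0.39. Of 19 mitochondria-specific genes 10 rose and 0 fell, with a median of 0.24. Over all tested probes 19.9% rose and 20.4% fell. Within the MRPS genes, 12 of 14 bacterial-type and 6 of 11 mitochondria-specific genes rose. Within the MRPL genes, 10 of 21 and 4 of 8 rose. The difference between types was not tested.

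The genes are spread over the genome. The brightest probes of 6 of them lie on chromosome 4 of rheMac2 and of 5 each on chromosomes 3 and 13. The nearest pair was MRPL46 (chr7:68075507-68075566) and MRPS11 (chr7:68094053-68094112), whose probes lie 18.5 kb apart on opposite strands. MRPL46 rose by 0.24 ± 0.11 and MRPS11 by 0.48 ± 0.13 (SD, n = 4).

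The self-self arrays hold other hybridisations of the same RNA. On them the same RNA is in both channels, and the ratio of Cy5 over Cy3 for the 55 genes lay between -0.26 and 0.22, with medians per array from -0.03 to 0.03. The response taken across these arrays, stimulated minus unstimulated level, had the same sign as on the ratio arrays in 47 of 55 genes and was above 0 in all 32 that had risen. Its median was 0.23. Most genes were lower than on the ratio arrays, with a median difference of -0.09 (self-self minus ratio arrays). The values from both sets lay within 0.25 of each other in 54 genes. The exception was MRPL44, at 0.50 ± 1.21 (SD, n = 4) across the self-self arrays: FNV, whose stimulated array was dim, gave 2.31, and FKN, FBR and FTV gave -0.04, -0.15 and -0.14. Without that dim array the stimulated level of MRPL44 in FNV was 12.78 on the log2 scale, against 14.15 with it. Tested across the self-self arrays alone and paired by animal, 23 genes rose, all among the 32, and MRPL10 fell, where 14% of all tested probes rose.

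**Figure D4:**
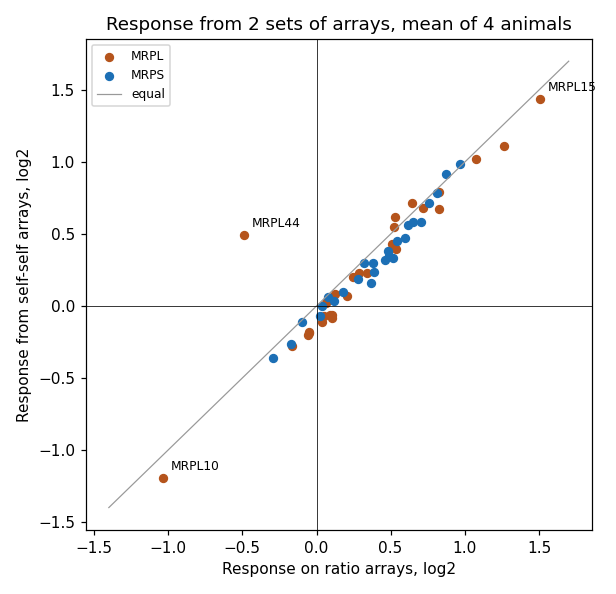
Mean response over 4 animals (log2) of the 55 genes on the ratio arrays (horizontal axis) and across the self-self arrays (vertical axis), with the line of equal values. Most points lie a little below the line, with a median difference of -0.09 (self-self minus ratio arrays). MRPL44 lies apart from it, at -0.49 and 0.50.

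The authors' deposited table of log2 ratios per animal lists all 55 genes, 49 of them with a value in every animal and 6 (MRPL17, MRPL27, MRPL37, MRPL53, MRPS18A and MRPS33) with none for FNV, so that these rest on the other 3 animals. Tested with limma over that whole table, which has no filter on dim probes, 24 genes rose and 1 fell, where 10.5% of all its entries rose. In 53 genes the sign was the same as above. For MRPL33, MRPL34, MRPL40, MRPL44 and MRPS26 the identifier in that table belongs to 2 probes, so its value may be of another probe than the brightest. MRPL34 is such a gene and differed in sign, with a mean of 0.02 there and -0.05 here.

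Other genes that serve the mitochondrial ribosome were also higher in many cases, where 19.9% of all tested probes rose and 20.4% fell. Not every listed gene had a probe under its name, and those without were not measured. Probes were found for 4 of 6 ribosomal proteins under other names, 9 of 14 translation factors and 16 of 25 assembly factors. There were 10 of 21 for RNA handling, 13 of 20 for tRNA charging and 15 of 26 for import. Of 4 ribosomal proteins under other names, 3 rose: DAP3 of the small subunit by 0.68 ± 0.02, ICT1 of the large subunit by 0.64 ± 0.16 and PTCD3 of the small subunit by 0.59 ± 0.08 (SD, n = 4). CHCHD1, also of the small subunit, gave 0.25 ± 0.16 (adjusted p = 0.053). Among 9 translation factors 6 rose, with a median of 0.33 over the list, led by the elongation factors GFM1 (0.53 ± 0.07) and TUFM (0.36 ± 0.12) and by TSFM (0.36 ± 0.11), which recharges TUFM. MTRF1, of the release factor family, fell by 0.39 ± 0.08 (SD, n = 4). GUF1 and TACO1, which assist translation, gave 0.15 ± 0.09 and 0.14 ± 0.19 and did not pass.

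Among 16 assembly factors 7 rose and 0 fell, with a median of 0.15, where 19.9% of all tested probes rose. The GTPase GTPBP10 rose most, by 0.75 ± 0.22, followed by MTERFD1 (0.54 ± 0.11) and the pseudouridine synthase RPUSD4 (0.47 ± 0.25). The lowest were the methyltransferases METTL15 (-0.13 ± 0.11) and NSUN4 (-0.08 ± 0.26) and the GTPase MTG1 (-0.05 ± 0.09), which did not pass.

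Among 10 genes of mitochondrial transcription and RNA handling 8 rose and 0 fell, with a median of 0.66, where 19.9% of all tested probes rose. The poly(A) polymerase MTPAP rose by 1.14 ± 0.21, the mRNA-binding protein LRPPRC by 0.80 ± 0.22 and the transcription factor TFB2M by 0.78 ± 0.02 (SD, n = 4). TFAM, which packages the mitochondrial genome, gave 0.32 ± 0.23 (adjusted p = 0.054), MTERF gave -0.08 ± 0.12, and HSD17B10, a part of the tRNA-processing enzyme, rose by 0.47 ± 0.11.

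Of 13 genes that charge mitochondrial tRNAs, 5 rose (38.5%) and 3 fell (23.1%), with a median of 0.17. Over all tested probes 19.9% rose and 20.4% fell, so the share of these genes that fell was near the background. YARS2, AARS2 and MARS2 rose by 0.67 ± 0.15, 0.58 ± 0.18 and 0.50 ± 0.19, and CARS2, FARS2 and RARS2 fell by 0.55 ± 0.26, 0.50 ± 0.38 and 0.43 ± 0.31 (SD, n = 4). Protein import, which brings these proteins into the organelle, had 13 of 15 genes that rose and 0 that fell, with a median of 0.83. The chaperonin HSPD1 rose by 1.56 ± 0.29, GRPEL1 by 1.41 ± 0.12 and HSPA9, the motor chaperone, by 1.39 ± 0.35. PMPCA, of the processing peptidase, rose by 0.43 ± 0.20, while PMPCB and the receptor TOMM20 gave 0.16 ± 0.12 and 0.01 ± 0.14 and did not pass.

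**Figure D5:**
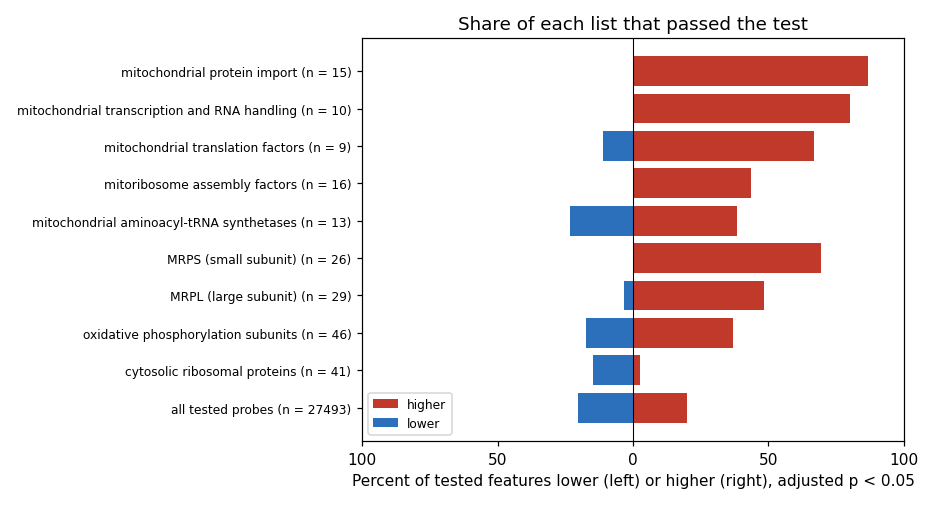
Percent of the tested members of each list that fell (bars left of 0) or rose (bars right of 0) at an adjusted p under 0.05, with the number tested in brackets and all tested probes at the bottom. MRPS and MRPL genes lie between the import genes, where 13 of 15 rose, and the cytosolic ribosomal proteins, where 1 of 41 rose.

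The cytosolic ribosome did not show the same pattern. Of 41 cytosolic ribosomal protein genes tested, 1 rose, 6 fell and 34 did not pass, with a median of -0.08. That is 2.4% that rose and 14.6% that fell, where 19.9% of all tested probes rose and 20.4% fell. The share that fell was thus below that of all tested probes. The gene that rose, RPL7L1 (0.89 ± 0.30), is named after a ribosomal protein and is known for ribosome assembly. The genes that fell did so by 0.24 to 0.30, among them RPL3 and RPL13A. Of 46 nuclear subunits of oxidative phosphorylation 17 rose (37.0%) and 8 fell (17.4%), with a median of 0.11. They ran from NDUFS8, which fell by 0.79 ± 0.16, to NDUFV2, which rose by 1.21 ± 0.20 (SD, n = 4). The differences between these groups and the mitochondrial ribosomal protein genes were not tested.

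The CD4 status of the animals was compared with 2 animals a group. No member gene passed for the response, the unstimulated level or the stimulated level by limma, where 0% of all tested probes passed in each, and at an unadjusted p under 0.05 there were 1, 0 and 1 member genes. That is 1.82%, 0% and 1.82% of the 55, against 2.16%, 1.63% and 1.93% of all tested probes, so the members lie near the background. The 1 in the response was MRPL10, which had -1.08 in FBR and -1.5 in FTV (CD4 low) and -0.78 and -0.80 in FNV and FKN (normal), a difference of -0.50 (adjusted p = 1.0). The groups did not overlap for MRPL10, nor for 6 other genes, 7 of 55 in all, where 27% of all tested probes did not overlap. By unadjusted p MRPL40 and MRPL17 came next, with differences of 0.25 and 0.31 (low minus normal). MRPL15 had a larger difference, 0.48, with more spread between animals.

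For levels, which are log2 signals after normalisation and are compared within a probe alone, MRPS28 had 11.84 in FNV, 11.70 in FKN, 11.25 in FBR and 10.59 in FTV after stimulation, a difference of -0.85 (low minus normal; adjusted p = 0.82). This was the 1 gene at an unadjusted p under 0.05 in the stimulated level; without the dim array FNV had 11.97. MRPL15 had unstimulated levels of 10.62, 9.06, 9.14 and 8.24 in FNV, FKN, FBR and FTV, so FNV stood above the rest and FKN lay among the animals with low CD4 status. MRPL50 had 11.16, 10.89, 10.68 and 10.35 in the same order, a difference of -0.51 (adjusted p = 0.82). MRPS9 had stimulated levels of 12.87 in FNV and of 11.63, 11.34 and 11.36 in FKN, FBR and FTV, and without the dim array FNV had 13.04. Groups did not overlap in 15 genes unstimulated and 17 stimulated, against 34.4% and 34.3% of all tested probes. Without FKN, FNV is the sole animal of normal status, and FNV alone was scanned in an earlier batch. Its dim array also enters the stimulated level. CD4 status then cannot be told apart from that animal or its batch, so no count is given for this setting.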

How the data were processed

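The authors deposited scanner output for 16 arrays, with spot and background intensity on a linear scale. Per the file headers, the scanner software was Agilent Feature Extraction, version 10.7.3.1. The authors' files also hold a log10 ratio of red over green, written by that software, per the file headers. A further deposited table holds the authors' log2 ratios per animal. The submitters' processing notes name limma and give no settings.

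Here the intensity values were background-corrected (normexp, offset 50) and normalised by loess within arrays, with control and outlier spots at weight 0. Dye-swapped ratios were turned to stimulated over unstimulated, and 2 arrays averaged per animal. On 1 FNV array the title and a characteristic disagree on a channel; the title was followed. Probes well above background on both ratio arrays in at least 2 animals were tested with limma 3.58.1 (lmFit, eBayes). Levels were scaled with Aquantile and averaged over 4 channels per animal and condition. On the stimulated self-self array of FTV a few spots with a local background far above their signal made normexp fail, and those of FKN and FNV were distorted. For levels and self-self values, backgrounds that the scanner software had marked as outliers were therefore replaced by the median of the channel's unmarked ones on all 16 arrays. This departs from the planned processing and was chosen after seeing the data. Samples are paired by animal, and FNV alone was scanned in an earlier batch. The labels do not give separate cultures within an animal. Named genes were the 10 highest and 10 lowest responses, genes with several probes, the most variable, those with the smallest p for CD4 status and those of known role, and in other lists the 3 highest and 3 lowest. The members and lists were chosen with earlier results of these data known. The fit was tested on simulated ratios. The number of arrays limits the precision.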

Additional observations from a re-analysis of the deposited data

Results flagged for a closer look

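The response of MRPS36 in FBR, 0.386, stood apart from the other 3 animals, which had 0.13 in FNV, 0.08 in FKN and 0.13 in FTV. It was the only value beyond the limit of Dixon's test among 35 results examined, and chance passes that limit in about 1 of 20 groups.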

How the results depend on the processing

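All 33 genes that passed kept their direction in each alternative for the response that was fitted across all probes; MRPL44, which did not pass, had a mean of -0.49 on the ratio arrays and 0.50 across the self-self arrays. The count of 32 genes that rose was 7 with median centring and 3 across the self-self arrays with no replicate block, with local backgrounds replaced or as deposited; paired by animal (replicate block) it was 23. Leaving out each animal gave 21 to 35 genes that rose, the lowest without FKN, and 1 to 2 that fell; MRPL44 was the second that fell without FNV. MRPS34 fell too, giving 2, with the scanner software's ratio and with the scan batch as a term. Across the self-self arrays without FNV, 3 fell: MRPL10, MRPL23 and MRPL40. The probes passing among all tested, 11082 in the main analysis, numbered 4851 with median centring, 8210 across the self-self arrays paired by animal, 2115 without the replicate block, 2161 without it on backgrounds as deposited, and 5796 to 14074 with an animal left out. The median response of the genes was 0.34, and 0.22 across the self-self arrays on backgrounds as deposited, paired or not. The MRPL and MRPS medians kept their order in each setting. For CD4 status the count of member genes was 0 in each setting, save 0 to 9 for the stimulated level with an animal left out, the 9 without FKN. The cause of these changes was not tested. Replacing the marked backgrounds, leaving out probes placed on another chromosome, averaging probes and leaving out the dim array were alternatives chosen after seeing the data.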
